A study of Mus musculus with 6 samples.

Results

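The genes described here encode proteins of cytoplasmic RNA granules: 38 genes of P-bodies, stress granules, Staufen transport granules and the RNA-induced silencing complex (RISC), out of 19057 genes named by the probes of the array. The rule takes genes by name, from what their proteins are known to do, and uses no measured value. The list was, however, chosen with earlier results of these data known. All 38 have at least 1 probe, 100 probes in all, and 32 genes with 63 probes were detected on enough arrays to be tested. The study measured total lens RNA of mice at postnatal day 4 with 6 Illumina bead arrays: 3 held RNA of Tdrd7 null lenses and 3 of Tdrd7 heterozygous lenses. The animals of both groups are of a mixed C57BL/6J and C3A.Blia background. The heterozygous controls carry a mutant Tdrd7 allele as well, and no wild-type lens was analysed here. The labels do not state what the allele is or whether each array stands for its own animal. Within each genotype sex-linked transcripts differed between arrays, so those arrays did not all hold RNA of the same animals. The p-values cover only the array-to-array spread, whose technical part and animal part cannot be told apart. In whole lens RNA, fewer cells of a type and less RNA per cell cannot be told apart.

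P-bodies are cytoplasmic granules that gather the enzymes which shorten the poly(A) tail of an mRNA, remove its cap and degrade it. Stress granules form when translation initiation stalls and hold untranslated mRNA with RNA-binding proteins, while Staufen granules carry and regulate mRNA through its double-stranded stretches. RISC consists of an Argonaute protein loaded with a microRNA, and its GW182 partners recruit the deadenylases of the decay machinery. Tdrd7 encodes a Tudor domain protein found in such granules, its loss causes cataract, and lens fibre cells, which lose their nuclei as they mature, depend on long-lived and post-transcriptionally controlled mRNA. The question for these genes was whether the transcripts of the granule machinery itself differ between null and heterozygous lens.

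The arrays had raw median intensities of 69.0 to 76.6 and 13901 to 15765 detected probes each. A probe was called detected at a detection p under 0.05 and tested when detected on at least 3 of 6 arrays, which 14636 probes of 8626 genes were. Within each genotype the letters a, b and c follow the column order of the table, and equal letters do not make a pair. Tdrd7 itself had a raw intensity of 1191 ± 82.0 on the null arrays and 12861 ± 336 on the heterozygous arrays (SD, n = 3 each), a log2 difference of -3.48 (SE 0.153, limma adjusted p = 1.47e-05). Null array b stood apart: its correlation with the other arrays over tested probes was 0.962 to 0.972, while the highest between any 2 arrays was 0.990. The arrays also differed in sex-linked transcripts: the Y-linked Eif2s3y was detected on null arrays a and b and heterozygous array b. Xist was undetected on null array b and detected on the other 5. Null array a and heterozygous array b thus had both transcripts. The lens fibre genes Cryaa, Cryab, Bfsp2, Lim2 and Mip, 5 of the 8 on the marker list, had summed raw intensities of 102350 to 132600 on null and 127850 to 131750 on heterozygous arrays. Sums of the lens epithelium list, with 4 of 4 genes tested, were 1401 to 1817 on null and 1076 to 2033 on heterozygous arrays. Vessel genes (7 of 9 tested) summed to 646 to 776 on null and 597 to 745 on heterozygous arrays, and red blood cell genes (4 of 6) to 671 to 1254 on null and 493 to 949.5 on heterozygous arrays. Single markers did not all follow these sums: the null arrays were all lower for Cryab (log2 difference -0.44). After normalisation they were all higher for the vessel genes Emcn (0.48) and Flt1 (0.51). The same held for the epithelium gene Foxe3 (0.32) and the retina gene Crx (0.27). Raw intensities of these higher genes were 70.5 to 98.8, close to background, and overlapped between the groups for all but Flt1. None of them and not Cryab passed (limma adjusted p = 0.964 each). The other tested fibre genes ran from -0.34 (Cryaa) to 0.12 (Mip), and the other tested vessel genes from -0.24 (Tek) to 0.70 (Cldn5). Differences of the tested red blood cell genes, all with overlapping groups, ran from 0.12 (Slc4a1) to 0.86 (Hba-a1). Without null array b they ran from -0.13 (Slc4a1) to 0.69 (Hbb-bs). Of the mesenchyme, macrophage and retina lists 1 of 6, 2 of 5 and 2 of 6 genes were tested, and Col1a1, Col1a2, Col3a1, Dcn and Lum were not, being detected on too few arrays. Many differences below are also given without null array b, but why that array stood apart was not tested. The part of sex or of cell type makeup in the results below was not tested.

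None of the 32 measured granule genes changed between null and heterozygous lens by the test used. With limma and Benjamini-Hochberg adjustment over all 14636 probes, 0 of 32 passed the threshold of 0.05, and the smallest adjusted p was 0.964. At an unadjusted limma p under 0.05 there was 1 gene, Fxr1. Of all probes 2 passed, which is 0.0137% of those tested, and 4.01% of all genes had an unadjusted p under 0.05. Of the granule genes 15 were nominally higher and 17 lower in null lens, and of all tested genes 47.8% were higher. The median log2 difference, null minus heterozygous, was -0.01 over the 32 genes and -0.01 over all 8626 genes. The median size of the difference regardless of sign was 0.131 in both sets.

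**Figure D1:**
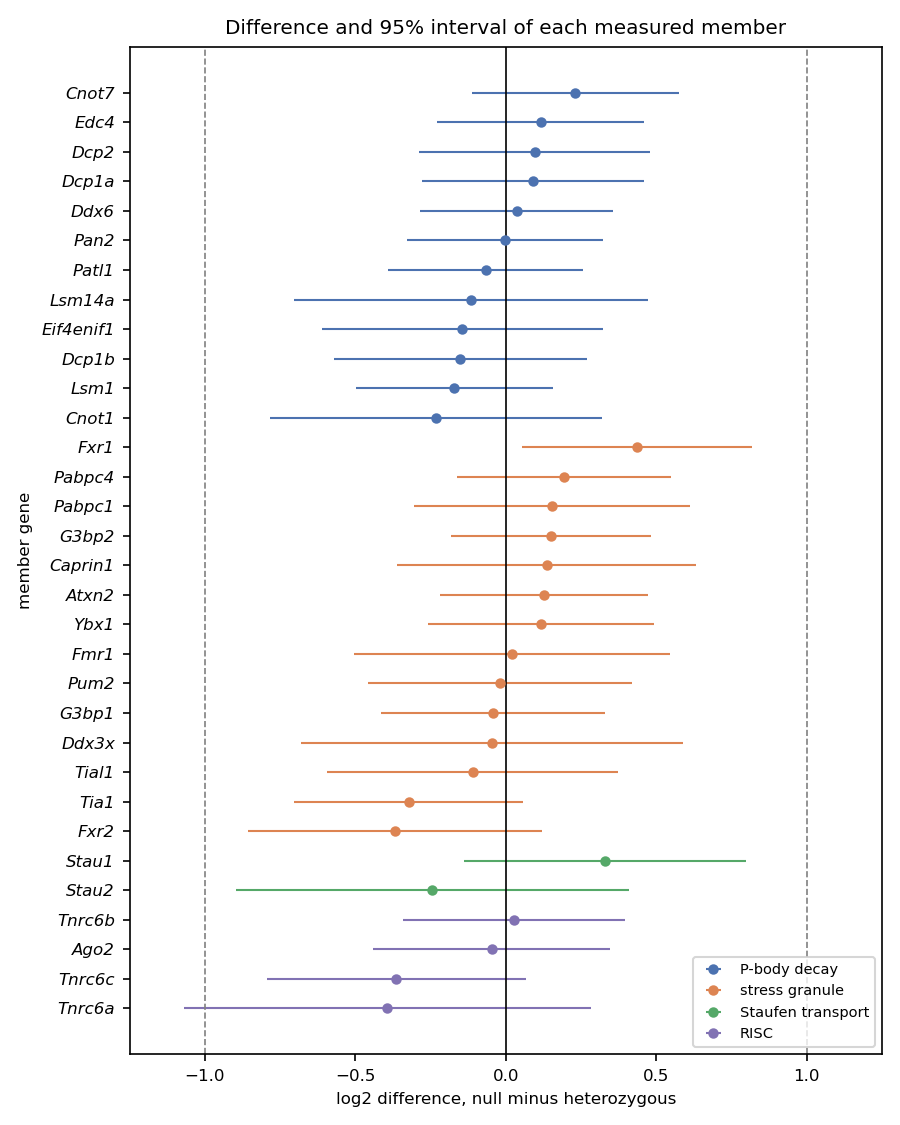
Log2 difference, null minus heterozygous (x axis), of the brightest tested probe of each of the 32 measured granule genes (y axis, by class), with its 95% interval from limma as a bar; dashed lines mark a difference of 1, which is 2-fold. The points run from -0.39 for Tnrc6a to 0.44 for Fxr1, and only the interval of Tnrc6a crosses a dashed line.

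How large a change these arrays leave room for is given by the intervals. On the brightest probe of each gene the 95% interval lay within 2-fold in either direction for 31 of the 32, against 97.1% of all tested genes. The exception was Tnrc6a, whose interval reached -1.07. Within 1.5-fold lay the intervals of 18 of the 32, and of 5073 of all 8626 genes. Dimmer probes of Pabpc1 and Ddx3x also had intervals past 2-fold, reaching 1.35 and -1.02. A gene with a wider interval may differ by more than 1.5-fold without being seen here, and a p that misses the threshold does not show that the levels were equal.

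Without any test, the 3 null arrays all lay above the 3 heterozygous arrays in normalised signal for 2 of the 32 genes, Fxr1 and Cnot7, and all below them for 0. Over all tested genes these shares were 5.23% and 6.13%. The count for the granule genes is thus near or below the background.

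**Figure D2:**
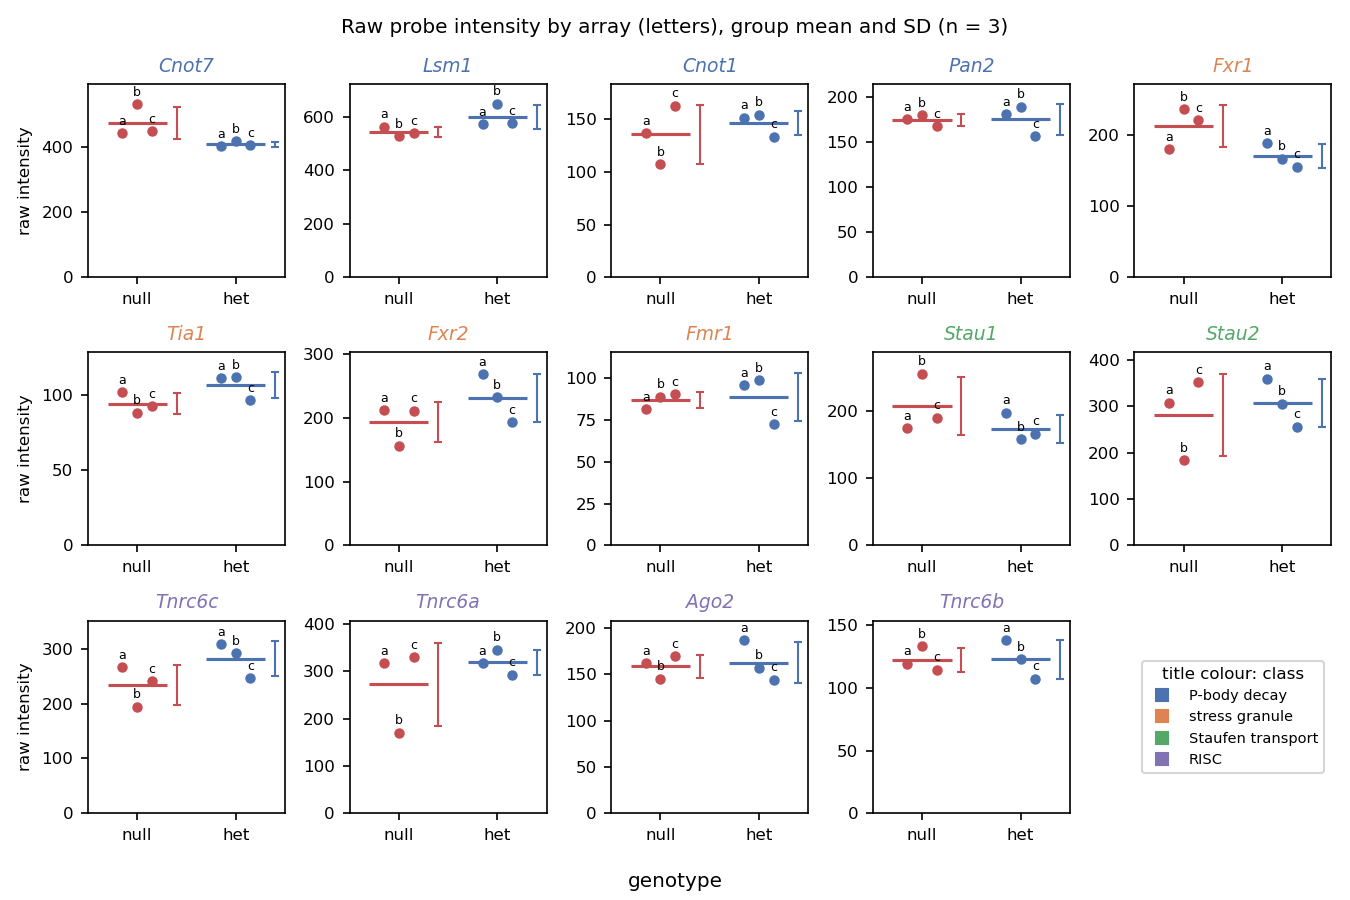
Raw probe intensity (y axis, linear, from 0) of 14 granule genes in null (left, red) and heterozygous (right, blue) lens, with points for the arrays, letters for their names, a line for the mean and a bar for the SD (n = 3 each). For Cnot7 all null points lie above the heterozygous points, and in the panels of Tnrc6a, Stau2, Cnot1 and Fxr2 null array b is the lowest point.

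Among the P-body genes, 12 of 15 were measured, 0 passed, 5 were nominally higher and 7 lower, and the median log2 difference was -0.03. Cnot7, a catalytic deadenylase subunit of the CCR4-NOT complex, had raw intensities of 443, 532 and 449 on the null arrays, given here and below in the order a, b, c, and 403, 418 and 406 on the heterozygous arrays. The groups did not overlap, with null array b the highest. The log2 difference was 0.23 (SE 0.153, adjusted p = 0.964) and 0.14 without null array b.

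Cnot1, the scaffold of the same complex, had 137, 107 and 163 on the null arrays and 152, 154 and 134 on the heterozygous arrays. Null arrays b and c enclosed all other values, so the groups overlapped. Its log2 difference of -0.23 (SE 0.247) became 0.07 without null array b. The nominal differences of the scaffold and its catalytic subunit were thus opposite in sign over all arrays and both above 0 without that array, and neither passed.

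Lsm1, a subunit of the ring that binds deadenylated mRNA ends and promotes decapping, had 565, 528 and 539 on the null arrays and 574, 649.8 and 576 on the heterozygous arrays. All raw null values lay below the heterozygous values, but after normalisation null array a lay above heterozygous array a (log2 signal of 9.04 against 8.99). The log2 difference was -0.17 (SE 0.146), and -0.14 without null array b. A second probe of Lsm1 gave -0.05.

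Pan2, the catalytic subunit of the PAN2-PAN3 deadenylase, was the P-body gene with the p nearest to 1. Its brightest probe had 175, 179.7 and 167 on the null arrays and 180.4, 189 and 156 on the heterozygous arrays, which enclosed the null values. The log2 difference was -0.003. Its other probes gave 0.18 and 0.29. On the probe with 0.29 the null arrays, with 162, 159.5 and 153 against 154, 137 and 129 on the heterozygous arrays, were all higher after normalisation (limma adjusted p = 0.964).

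The decapping genes showed small differences. Dcp2, the decapping enzyme, differed by 0.10, and its raw intensity was between 81.6 and 84.6 on null and between 73.5 and 90.0 on heterozygous arrays. Of its activators, Dcp1a differed by 0.09 and Dcp1b by -0.15, which was 0.03 without null array b, and a second probe of Dcp1b gave 0.01. Edc4, the scaffold that links activator and enzyme, differed by 0.12, with 135, 138 and 136 on the null arrays inside the range of 122 to 148 on the heterozygous arrays. Patl1, a bridge between decapping and the Lsm ring, differed by -0.07. Ddx6, the P-body helicase that couples repression to decapping, had 528, 582 and 573 on null and 527, 545 and 553 on heterozygous arrays and differed by 0.04, while its 3 other probes gave -0.13, -0.21 and -0.25. None of these genes had groups that were apart on the brightest probe.

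Lsm14a and Eif4enif1 encode partners of DDX6 that repress translation and are needed for P-body assembly. Lsm14a had 386, 246 and 485 on the null arrays and 420.0, 398 and 327 on the heterozygous arrays, and Eif4enif1 had 365, 268 and 434 against 371, 390.1 and 364. For both genes null array b was the lowest of the 6 and null array c the highest. The difference of Lsm14a was -0.12 with null array b and 0.22 without it, and that of Eif4enif1 was -0.14 and 0.09. A second probe of Eif4enif1 gave 0.21.

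All 14 stress granule genes were measured, 0 passed, 8 were nominally higher and 6 lower, and their median log2 difference was 0.07. The FMRP family, whose members bind mRNA and regulate its translation, was measured in full, and its 3 genes had differences of 0.44, -0.37 and 0.02. Fxr1 had 180.1, 237 and 221 on the null arrays and 189, 167 and 155 on the heterozygous arrays. In normalised log2 signal these were 7.02, 7.49 and 7.39 against 7.01, 6.77 and 6.81, so that null array a and heterozygous array a only just failed to meet, and the raw values of those arrays lay in the other order. The log2 difference of 0.44 (SE 0.171) was the highest of the 32 genes, with an unadjusted limma p of 0.0297 and an adjusted p of 0.964, and it was 0.34 without null array b.

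Fxr2 had 212, 157 and 212 on the null arrays and 269, 233 and 193 on the heterozygous arrays. The groups overlapped, and null array b was the lowest of all. The log2 difference was -0.37 (SE 0.218) and -0.14 without null array b, and a second probe of Fxr2 gave -0.02. Fmr1, the founding member of the family, had 81.2, 88.7 and 90.1 on the null arrays and 95.5, 98.4 and 72.2 on the heterozygous arrays, a log2 difference of 0.02 and the p nearest to 1 in the class. Its signal was close to background and it was detected on 2 of 3 heterozygous arrays.

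Tia1, an RNA-binding protein with a prion-like domain that nucleates stress granules, had 102, 88.3 and 92.8 on the null arrays and 111, 112 and 96.6 on the heterozygous arrays. Only null array a reached into the heterozygous range of these low signals, which were detected on every array. Its log2 difference was -0.32 (SE 0.170, adjusted p = 0.964), and its other probes gave -0.32 and -0.10. Without null array b the 3 probes gave -0.18, -0.48 and 0.10. Its relative Tial1 differed by -0.11, and by 0.14 without null array b, with 199, 149 and 212 on the null arrays and 216, 189 and 177 on the heterozygous arrays. The other probes of Tial1 gave -0.05 and 0.21.

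The G3BP proteins and caprin form the core whose condensation with RNA builds the stress granule. G3bp1 had 727, 674 and 664 on null and 705, 825 and 582 on heterozygous arrays and differed by -0.04. A second probe of G3bp1 gave 0.10. G3bp2 had 1430.1, 1536 and 1362 on null and 1346, 1249 and 1226 on heterozygous arrays. All raw null values of G3bp2 were above the heterozygous ones, but after normalisation null array c, at 10.27, lay below heterozygous arrays a and c, and the difference was 0.15 (SE 0.149). Caprin1 had 910.2, 624 and 1147 on null and 816, 792 and 721 on heterozygous arrays, with null array b the lowest and null array c the highest. Its difference was 0.14, and 0.40 without null array b (adjusted p = 0.759).

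Pabpc1 and Pabpc4 encode cytoplasmic poly(A)-binding proteins. The brightest probe of Pabpc1 had 5224, 4606 and 7581 on the null arrays and 6399, 4941 and 4372 on the heterozygous arrays and differed by 0.15, or 0.29 without null array b. Its dimmer probes gave 0.14 and 0.66, and the 0.66 (SE 0.308, adjusted p = 0.964), the largest difference of any tested probe of the 32 genes, was 0.26 without null array b. The raw null values of that probe, 204, 417 and 211, lay above the heterozygous values of 182, 168 and 200.3, but the groups overlapped after normalisation. Pabpc4 had 596, 551 and 669 on null and 527, 505 and 561 on heterozygous arrays, a difference of 0.19 (SE 0.159). The groups overlapped on the brightest probe of Pabpc1, and for Pabpc4 only null array b reached into the heterozygous range.

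The remaining stress granule genes differed by little. Ybx1, a cold shock domain protein that packages mRNA, had raw intensities of 10951 to 13185 on null and 10164 to 12788 on heterozygous arrays and differed by 0.12, or 0.01 without null array b. Atxn2, a partner of poly(A)-binding protein, differed by 0.13, with 992, 1154 and 1287 on null and 1139, 1044 and 911 on heterozygous arrays. Pum2, a sequence-specific repressor that recruits deadenylases, averaged 194 ± 32.1 on null and 194 ± 18.1 on heterozygous arrays (SD, n = 3 each) and differed by -0.02, or 0.18 without null array b.

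Ddx3x, an X-linked helicase gene of translation initiation, varied more between the null arrays than between the groups. It had 303, 226 and 479.6 on the null arrays and 378, 314 and 282 on the heterozygous arrays. A second probe, with 98.3, 86.8 and 156 on null and 128, 119 and 106 on heterozygous arrays, gave the same order of the null arrays. Relative to the mean of the other 5 arrays the log2 signals of these probes were -0.78 and -0.98 on null array b and 0.76 and 1.01 on null array c. The difference between groups was -0.05 on the brightest probe, and 0.27 without null array b.

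The Staufen proteins bind double-stranded RNA, and their genes were both measured. Stau1 had 175, 256 and 189.8 on the null arrays and 197, 158 and 166 on the heterozygous arrays, with null array b above all others. Its difference was 0.33 (SE 0.210, adjusted p = 0.964), and 0.12 without null array b. Stau2 had 308, 184 and 353 on the null arrays and 359.9, 306 and 256 on the heterozygous arrays. Here null array b was below all others, and the difference of -0.24 (SE 0.292) became 0.13 without it. The opposite nominal directions of the 2 genes were thus not kept without that array, and a second, dimmer probe of Stau2, detected on 1 of 3 heterozygous arrays, gave 0.24.

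In RISC, 4 of 7 genes were measured, 0 passed, 1 was nominally higher and 3 lower, and the median log2 difference was -0.21. Tnrc6a, Tnrc6b and Tnrc6c encode the GW182 proteins that tie Argonaute to the deadenylases. Tnrc6a had 318, 171 and 329.6 on the null arrays and 318, 346 and 293 on the heterozygous arrays. Null array b lay far below the other 5 arrays, and the difference of -0.39 (SE 0.302), the lowest of the 32 genes, became 0.02 without it. The other 2 probes of Tnrc6a gave -0.06 and 0.01.

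Tnrc6c had 266, 194 and 241 on the null arrays and 308, 291 and 247 on the heterozygous arrays. Null array a lay inside the heterozygous range and the other null arrays below it, and the difference was -0.36 (SE 0.192, adjusted p = 0.964) and -0.18 without null array b. A second probe gave -0.04. Tnrc6b had 119, 133 and 114 on null and 138, 123 and 107 on heterozygous arrays and differed by 0.03, the p nearest to 1 in the class. Its other probes gave 0.08, -0.20 and 0.26. Ago2, the Argonaute with slicer activity, had 162, 145 and 169 on null and 187, 157 and 144 on heterozygous arrays and differed by -0.05, or 0.08 without null array b. The other probes of Ago2 gave -0.12 and 0.18. Without null array b the median of the class was -0.01.

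The 6 genes not tested were Edc3, Xrn1, Pan3, Ago1, Ago3 and Mov10. Edc3, an enhancer of decapping, Xrn1, the exonuclease that degrades decapped mRNA, Pan3, the partner of PAN2, and Ago1 were detected on 0 of 6 arrays. Their raw intensities were 58.4 to 74.6 for Edc3, 68.7 to 80.7 for Xrn1, 64.5 to 78.6 for Pan3 and 52.6 to 67.0 for Ago1, near the raw medians of the arrays. Of the 4 probes of Ago3 and the 3 of Mov10, a helicase that associates with Argonaute, none was detected on more than 2 arrays. The best detected probe of Ago3 was called on 2 null and 0 heterozygous arrays and that of Mov10 on 1 null and 1 heterozygous array. No difference between genotypes was tested in these 6 genes.

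Null array b was the array on which the granule genes departed most. It was the farthest from the mean of the other 5 arrays for 19 of the 32 genes, 59.4%, and for 45.2% of all tested genes. It was the lowest array for 15 genes, 46.9%, against 33.0% of all genes, while null array c was the highest for 12, 37.5%, against 18.2% of all genes. Without null array b the median difference of the 32 genes was 0.08, against 0.003 over all genes. By class the medians without it were 0.07 for P-body, 0.13 for stress granule, 0.13 for Staufen and -0.01 for RISC genes, and 0 granule genes passed (smallest adjusted p = 0.759). These shares describe the arrays and were not tested.

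**Figure D3:**
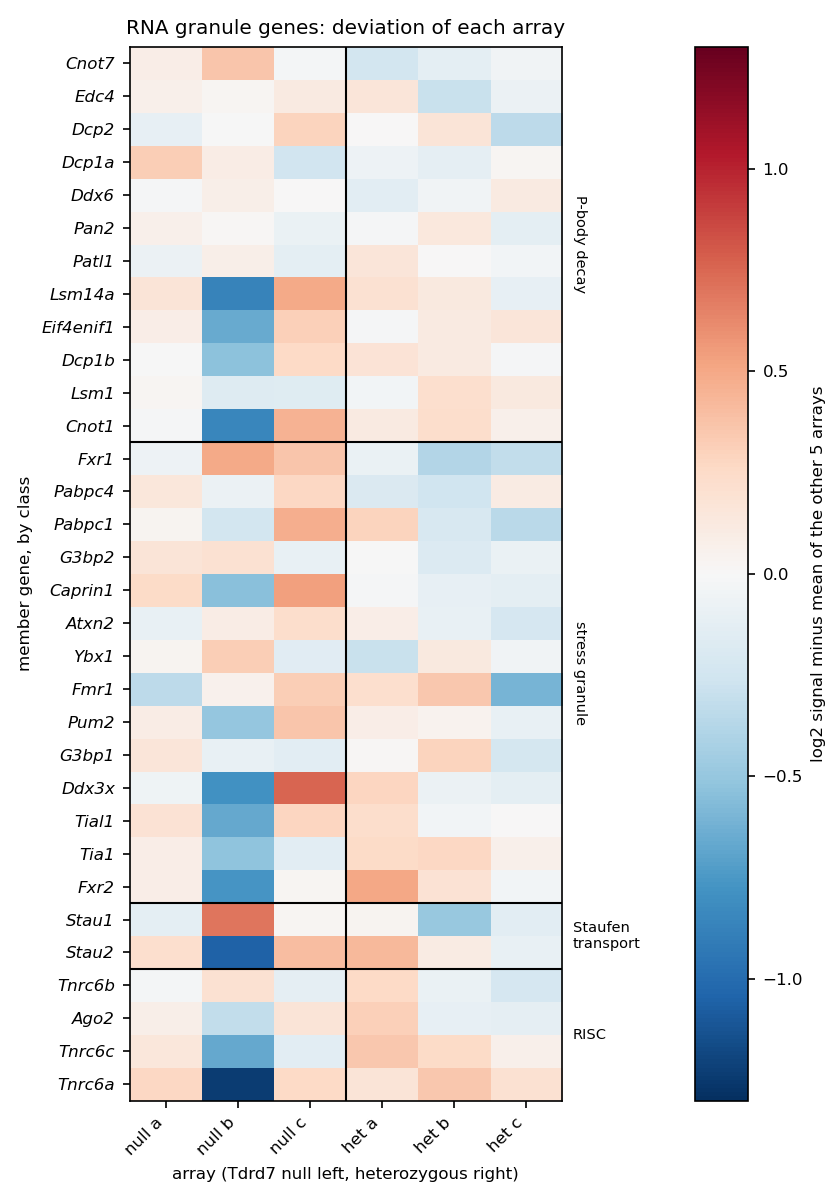
Log2 signal of each of the 32 measured granule genes (rows, by class) on each array (columns, null left and heterozygous right) minus the mean of the other 5 arrays, with red for higher and blue for lower. The darkest blue cells are in the column of null array b, as for Tnrc6a (-1.24), Stau2 (-1.05), Lsm14a (-0.87) and Cnot1 (-0.85), while Stau1 is red there (0.69).

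In each of the 4 classes the medians of the null arrays overlapped those of the heterozygous arrays. On null array b the median deviation from the other arrays was 0.01 for P-body genes, -0.17 for stress granule genes, -0.18 for the Staufen genes and -0.49 for RISC genes, against -0.04 for all tested genes. On null array a the class medians were between 0.04 and 0.11, and on null array c between 0.02 and 0.27. The heterozygous arrays had class medians between -0.19 and 0.28.

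**Figure D4:**
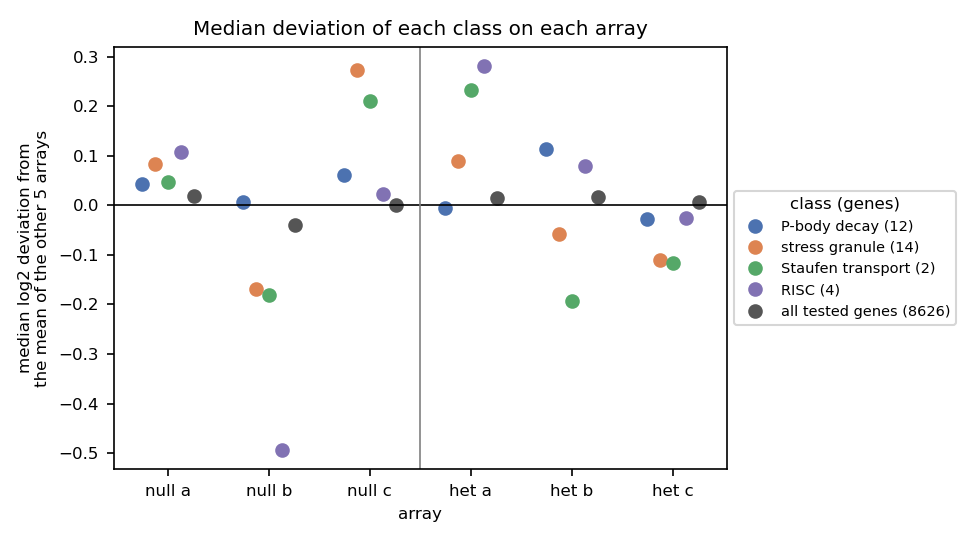
Median log2 deviation from the mean of the other 5 arrays (y axis) of each class of granule genes and of all tested genes (colours, with the number of genes), on each array (x axis, null left of the line and heterozygous right). The RISC genes lie lowest on null array b (-0.49) and the points of all tested genes stay near 0.

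Where a gene had several tested probes, they often disagreed, and most on null array b. Of the 20 granule genes with several probes, the signs of the difference disagreed in 10, which is 50%, against 50.2% of 2884 such genes in all. On null array b the probes of a granule gene spanned a median of 0.684 on the log2 scale of the deviation, and 0.198 to 0.351 on the other arrays. For all genes these values were 0.435 and 0.201 to 0.256. The median brightest probe of the 20 genes lay 0.467 below the mean of its gene's other probes on null array b, and the brightest probe was the lower in 15 of 20 genes, 75%, against 60.4% of all genes. This comparison was chosen after the values were seen.

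The same disagreement is visible in single genes. For Pabpc1 the brightest probe was lower on null array b than the mean of the others (-0.24), while its dimmer probes had 417 and 230.2 there and no more than 211 and 158 on any other array. For Tnrc6a the brightest probe stood at -1.24 and the others at -0.16 and 0.14. Eif4enif1 had a second probe with 191 on null array b and 134 to 151 on the others, opposite to its brightest probe. Caprin1, Ddx3x and Lsm1, in contrast, had probes that deviated in the same direction on that array.

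**Figure D5:**
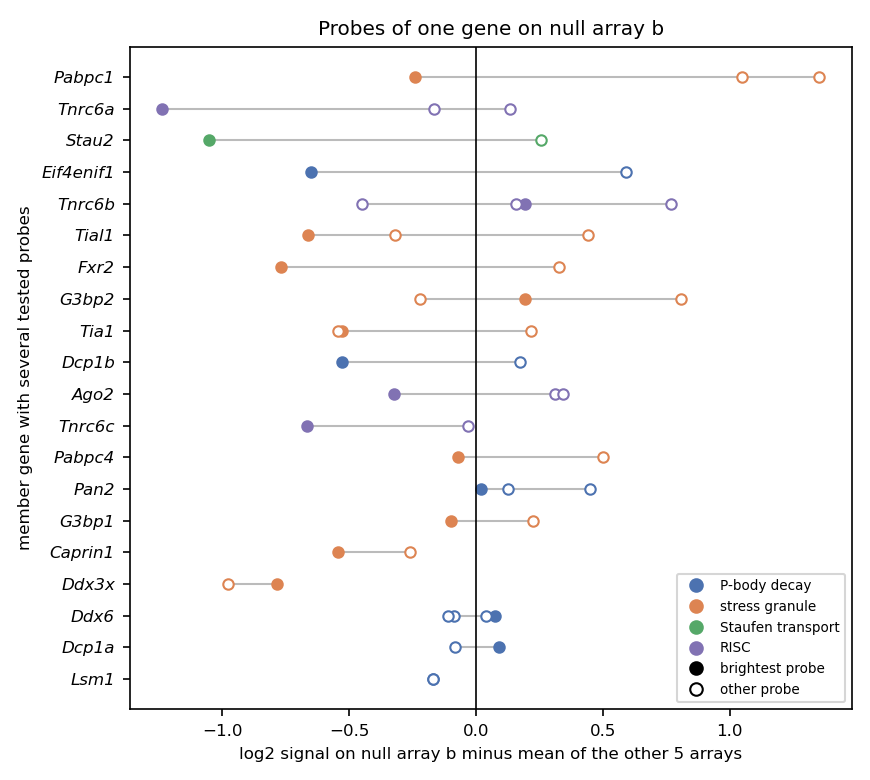
Log2 signal on null array b minus the mean of the other 5 arrays (x axis) of every tested probe of the 20 granule genes with several tested probes (y axis), with filled points for the brightest probe and open points for the others. The spread is 1.59 for Pabpc1 at the top and 0.001 for Lsm1 at the bottom, and most filled points lie left of the open ones.

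None of the tested genes on 4 lists of factors that work beside these passed either. Of 30 further genes of deadenylation and decapping 24 were tested, 0 passed, 11 were nominally higher and 13 lower, with a median of -0.02. The smallest p-values belonged to Zfp36, a binder of AU-rich elements that recruits deadenylases (0.26), to Lsm14b (-0.36) and to the CCR4-NOT subunit gene Cnot9 (-0.23). Without null array b, on which Lsm14b had 345 against 547 or more elsewhere, Lsm14b differed by -0.09 and Cnot9 by -0.31. Zfp36 differed by 0.20 without that array. Of 21 genes of stress granule assembly and the kinases of eIF2 14 were tested, 0 passed, 5 were higher and 9 lower, with a median of -0.03. Eif2ak2, the double-stranded RNA-activated kinase PKR, had 108, 104 and 107 on the null arrays and 126, 137 and 111 on the heterozygous arrays, a difference of -0.39 (SE 0.154, adjusted p = 0.964). Its groups did not overlap, the unadjusted limma p was 0.0313, and the difference was -0.33 without null array b. Serbp1 differed by 0.66, with 769, 1865 and 869.7 on null and 678, 702 and 702 on heterozygous arrays, with null array b far above the other 5, and by 0.23 without that array. Hnrnpa1 differed by -0.43, with 507 on null array b and at least 847 on the others, and by -0.16 without that array.

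Of 15 genes of RNA transport and translational control 11 were tested, 0 passed, 5 were higher and 6 lower, with a median of -0.06. The smallest p-values were those of the cytoplasmic polyadenylation element binding genes Cpeb1 (-0.44), Cpeb4 (-0.31) and Cpeb3 (0.16). Null array b was the lowest for Cpeb1 and Cpeb4, whose differences were -0.03 and 0.02 without it. Of 10 genes of microRNA processing 8 were tested, 0 passed, 6 were higher and 2 lower, with a median of 0.16 that became 0.04 without null array b. Xpo5, the exporter of precursor microRNAs, differed by 0.28, the fourth Argonaute gene Ago4 by 0.25 and Drosha, the nuclear enzyme that cuts primary microRNAs, by 0.28. The raw intensities of Ago4 were 76.8 to 86.7, close to background. Without null array b Xpo5 differed by 0.18 and Ago4 by 0.23. Drosha had 367, 599 and 327 on the null arrays and 352, 337 and 355 on the heterozygous arrays, with null array b far above the other 5, and its difference without that array was -0.01. In all of these lists the smallest adjusted p was 0.964.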

How the data were processed

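The deposited raw table holds an intensity on a linear scale and a detection p-value per probe and array, per the file headers; its values were not normalised between arrays. A second deposited table, used as an alternative, holds the authors' normalised intensity values, and its normalisation is not given in the sources used here. Biotinylated cRNA came from a TotalPrep amplification, per the labels' protocols. Column names of the raw table carry the genotype alone.

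Intensities were corrected with limma 3.58.1 in R 4.3.3 by normexp (offset of 16), its negative controls being inferred through the steps of the detection p-values, which imply 936 of them, and were then quantile normalised and taken to log2. The contrast of null minus heterozygous lens, with no covariate, used lmFit and eBayes (two-sided, Benjamini-Hochberg over 14636 probes, threshold 0.05). Probes were named from the platform annotation: 34885 have 1 symbol, 18 several and 10378 none. A gene is represented by whichever tested probe had the highest mean log2 signal, and levels of different probes were not compared. No genome build is named in the sources used here, so no coordinates are given.

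The members and all lists were chosen with earlier results of these data known. Values on every array were planned for members whose groups did not overlap, the 3 of smallest p and the one with p nearest to 1 in each class; those of other members were added after the values were seen. The steps were tested on simulated data in which all arrays had the same spread. An array that stands apart, as null array b did, was thus not simulated. Alternatives covered the background step, normalisation, the deposited normalised table, the filter on dim probes, array weights, the replicate number as a block, averaging all probes of a gene and leaving out each array.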

Additional observations from a re-analysis of the deposited data

How the results depend on the processing

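With limma, 0 of the member genes passed the threshold under any of the 14 alternatives, and the lowest adjusted p over genes and alternatives was 0.472, for Caprin1 with array weights. Of 446 recomputed member differences 56 had the other sign, in 21 genes, while 11 genes kept their sign throughout. Fxr1 ran from 0.23 to 0.57. The difference of Tdrd7 ran from -3.57 to -3.37 and passed under every alternative run.

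Over all probes 2 passed; the number was 1 without the filter on dim probes, 13 with array weights, 1 with the replicate block and between 1 and 3 with each array left out. The array weights ranged over 0.208 (null b), 0.79 (null c) and 3.44 (null a) in null lens, against 0.895 to 1.55 in heterozygous lens. The median of the P-body genes was 0.0319 with median scaling, and between -0.0772 and 0.0696 with each array left out. Member genes with groups that do not overlap numbered 2, 4 when all probes of a gene were averaged (10.9% of all genes do so there), and 2 to 7 with each array left out, where 17.9% to 23.6% of all genes do so.

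Nothing in the labels says that the replicate numbers of the deposited normalised table pair the samples. Null and heterozygous deviations of the same number correlated at 0.14, -0.17 and -0.15. Unlike numbers were not compared, so these values cannot decide whether samples were paired. With the replicate block 0 member genes passed and the P-body median was -0.03. The stress granule median of 0.07 was -0.002 in the deposited normalised table, with or without the block, -0.01 without heterozygous array c and -0.03 without null array c. The Staufen median of 0.04 was -0.03 when either null array c or heterozygous array b was left out. The RISC median of -0.21 was -0.04 with array weights, -0.07 with averaged probes and -0.01 without null array b. It stayed below 0 under every alternative run. Signals near background limit the detection of Dcp2, Fmr1 and the 6 untested genes, and 3 arrays a group limit the precision of all.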
